A study of Mus musculus with 6 samples.

Results

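The Hox genes of the 4 mouse clusters HoxA, HoxB, HoxC and HoxD were examined in CUT&Tag profiles of monomethylated lysine 4 of histone H3 (H3K4me1) from whisker pads at embryonic day 12 (E12). The set held 38 protein-coding genes of paralog groups 1 to 13, listed by symbol and taken from the GENCODE M21 annotation on mm10, out of 21755 protein-coding genes on the autosomes and the X chromosome. HoxA and HoxB contributed 10 genes each, and HoxC and HoxD contributed 9 each. The rule that defines the set uses no measured value. The tissue was wild-type whisker pad of the strain given as B6/J2, dissociated whole into single cells, so that mesenchyme, surface ectoderm, vessels and nerve entered each sample together. The series comprised 6 samples, of which 3 were profiled with an H3K4me1 antibody and 3 with control IgG. The 3 H3K4me1 samples are described here, and the IgG samples were not analysed here. In bulk tissue a mark carried by few cells and a weak mark carried by many cannot be told apart.

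Hox genes encode homeodomain transcription factors that assign position along the head-to-tail axis and the limbs. Each cluster runs from paralog group 13 at its 5′ end to the lowest groups at its 3′ end, and the genes at the 3′ end are activated earlier and further towards the head, a relation known as collinearity. The neural crest that builds the upper face and the first pharyngeal arch is known as Hox-negative, whereas crest of the more caudal arches carries Hox expression. Hox clusters that are off are classic targets of Polycomb repression. H3K4me1 marks active and poised enhancers and the shoulders of active promoters.

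Each replicate was represented by its own list of SEACR peaks, which are blocks of continuous signal. The lists held 16788, 12969 and 13998 peaks in replicates 1, 2 and 3 and covered 2.47%, 2.32% and 2.23% of the sequenced genome. Each list was limited by the authors to the top 1% of blocks, so absence from a list does not show absence of the mark, and the depth of the libraries was not measured here. The titles place all 3 samples in the whisker pad, while another label of replicates 2 and 3 reads adult kidney, and the titles were used. Among 12 facial mesenchyme markers, 12 had a peak within 5 kb in every replicate. Among 18 adult kidney markers, 7, 7 and 3 had a peak in replicates 1, 2 and 3, which is 38.9%, 38.9% and 16.7% against 24.9%, 22.6% and 19.6% of all protein-coding genes, and the nephron genes Umod, Slc34a1 and Nphs1 had none in any replicate. The kidney share was thus above that of all genes in replicates 1 and 2, of which replicate 1 carried no kidney label, and below it in replicate 3. The titles number the samples as whisker pads 1, 2 and 3, and whether the pads came from separate embryos was not given in the sources used here, so the spread between replicates may be in part technical.

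The sequences that carry the findings are of 2 kinds, the Hox promoters where no peak lay and the flanking regions where peaks lay. Promoter sequence was taken from RefSeq, GRCm38, as 250 bases before to 50 bases after the start, and 22 of the 38 genes matched. Of paralog group 13, the group present in all 4 clusters at their 5′ ends, Hoxa13 and Hoxd13 matched and are shown 5′ to 3′ on the strand of the gene, with every CpG dinucleotide in capitals. Hoxb13 and Hoxc13 had no entry.
Hoxa13, chr6:52260831-52261130, minus strand: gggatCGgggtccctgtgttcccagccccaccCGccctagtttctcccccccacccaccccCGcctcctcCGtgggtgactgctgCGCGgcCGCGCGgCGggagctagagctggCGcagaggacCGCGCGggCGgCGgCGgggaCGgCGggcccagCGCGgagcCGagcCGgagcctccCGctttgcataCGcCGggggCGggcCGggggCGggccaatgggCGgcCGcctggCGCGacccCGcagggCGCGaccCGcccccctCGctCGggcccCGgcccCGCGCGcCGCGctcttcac
Hoxd13, chr2:74667975-74668274, plus strand: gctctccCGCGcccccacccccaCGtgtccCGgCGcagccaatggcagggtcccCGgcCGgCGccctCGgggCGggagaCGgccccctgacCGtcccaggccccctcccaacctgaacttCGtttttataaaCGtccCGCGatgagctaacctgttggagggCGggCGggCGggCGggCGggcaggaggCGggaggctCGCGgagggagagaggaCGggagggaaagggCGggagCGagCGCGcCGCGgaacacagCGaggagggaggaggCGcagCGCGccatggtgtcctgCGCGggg

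The Hoxa13 promoter held 45 CpG dinucleotides and the Hoxd13 promoter held 37, and 2.46% and 7.12% of 16433 protein-coding promoters held as many. Across the 22 matched Hox promoters the count ranged from 4 to 45 with a median of 13.5, against a median of 14 for all promoters. The Hox genes therefore included both CpG-dense and CpG-poor promoters, and no peak lay at either kind.

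The flanking sequences below are 150 bases of GRCm38. They come from the region nearest to each cluster that carried a peak in all 3 replicates and from the strongest such region in any flank. Each is centred on the highest pileup of 1 replicate, the one whose peak ranked highest by total signal within its list. Capitals mark bases at which at least 1 replicate reached its highest pileup within the region.
HoxA 3′ flank, nearest, chr6:51742777-51742926, plus strand: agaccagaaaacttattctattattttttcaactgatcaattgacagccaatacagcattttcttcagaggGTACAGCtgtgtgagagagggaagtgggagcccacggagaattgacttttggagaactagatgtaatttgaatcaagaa
HoxB 5′ flank, nearest, chr11:95992812-95992961, plus strand: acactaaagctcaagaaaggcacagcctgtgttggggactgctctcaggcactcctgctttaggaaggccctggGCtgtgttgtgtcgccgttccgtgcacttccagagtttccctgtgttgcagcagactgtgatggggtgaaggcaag
HoxC 3′ flank, nearest, chr15:103114670-103114819, plus strand: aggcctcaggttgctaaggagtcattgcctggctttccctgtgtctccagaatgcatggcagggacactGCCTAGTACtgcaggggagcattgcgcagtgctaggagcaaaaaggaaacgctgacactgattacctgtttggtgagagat
HoxD 3′ flank, nearest, chr2:74926854-74927003, plus strand: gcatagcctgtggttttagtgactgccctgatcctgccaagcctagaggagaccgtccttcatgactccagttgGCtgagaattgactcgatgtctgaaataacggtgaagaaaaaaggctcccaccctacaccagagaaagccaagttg
HoxC 3′ flank, strongest, chr15:103302562-103302711, plus strand: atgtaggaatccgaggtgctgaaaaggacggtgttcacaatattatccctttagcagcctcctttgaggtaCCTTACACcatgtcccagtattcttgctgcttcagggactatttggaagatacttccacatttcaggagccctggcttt

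The highest pileups of the 3 replicates lay within 527 bases of each other in the nearest HoxC region and within 1538 bases in the strongest HoxC region. In the nearest HoxA, HoxB and HoxD regions they were spread over 1485, 3427 and 4108 bases. The position of the highest pileup thus varied between replicates inside regions that all of them listed.

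No Hox gene carried an H3K4me1 peak. In replicate 1, 0 of 38 Hox genes had a peak overlapping the gene body or the 5 kb on either side, and the counts were 0 of 38 in replicates 2 and 3 as well. Across all protein-coding genes 24.9%, 22.6% and 19.6% had a peak in replicates 1, 2 and 3. A peak in all 3 replicates was found at 15.5% of protein-coding genes, and a peak in at least 1 replicate at 28.8%. Hox genes are short and lie close together, so that their windows overlap and the 38 genes stand for 4 loci rather than 38 independent observations. Among protein-coding genes under 10 kb, 15.5%, 14.7% and 8.59% had a peak in replicates 1, 2 and 3, and 18% had one in at least 1 replicate. Among genes whose promoter GC content was at or above the Hox median of 55.2%, 39.5% had a peak in at least 1 replicate, and that median differed little from the 55.0% of all genes. Widening the window to 20 kb left the Hox count at 0 of 38 in at least 1 replicate, where 37.6% of protein-coding genes had a peak.

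Read by paralog group, the anterior genes of groups 1 to 3, which include the hindbrain segment genes Hoxb1, Hoxa2 and Hoxb2, had 0 members with a peak in each replicate. The central groups 4 to 8, which act in the neck and trunk and include Hoxc6 and Hoxc8, had 0. The posterior groups 9 to 13, which pattern the lumbar to caudal axis, the limbs and the urogenital tract and include Hoxd13 and Hoxa13, also had 0. The 13 groups could therefore not be ordered by the presence of a peak.

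The clusters themselves were empty from end to end. HoxA spanned chr6:52162417-52260880 from Hoxa2 to Hoxa13 (98.5 kb), HoxB spanned chr11:96194316-96368256 from Hoxb1 to Hoxb13 (173.9 kb), HoxC spanned chr15:102921103-103036852 from Hoxc4 to Hoxc13 (115.8 kb), and HoxD spanned chr2:74668310-74765142 from Hoxd1 to Hoxd13 (96.8 kb). Each held 0 peaks in each replicate, with 0% of its length covered, over 485 kb in sum. With no peak in any of them, the clusters could not be compared by this measure. The 38 annotated noncoding genes inside these empty clusters, 7 of them microRNA genes, therefore had 0 with a peak.

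An empty stretch of this size was common in these lists. Of 25626 windows of 100 kb that tile the genome, 33.1% had a peak in at least 1 replicate and 66.9% had none. Windows that resemble the clusters more closely were occupied more often. Of 244 windows with at least 7 protein-coding starts, 63.5% had a peak in at least 1 replicate, and of 579 windows within the GC range of the clusters (48.9% in HoxB to 49.97% in HoxA) the share was 75.5%. Bases masked as repeats in the genome sequence made up 13.4% of HoxA, 24.6% of HoxB, 15.9% of HoxC and 14.4% of HoxD, against 34.3% of the genome. These window classes were chosen after the clusters were seen to be empty and are given as a description.

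**Figure D1:**
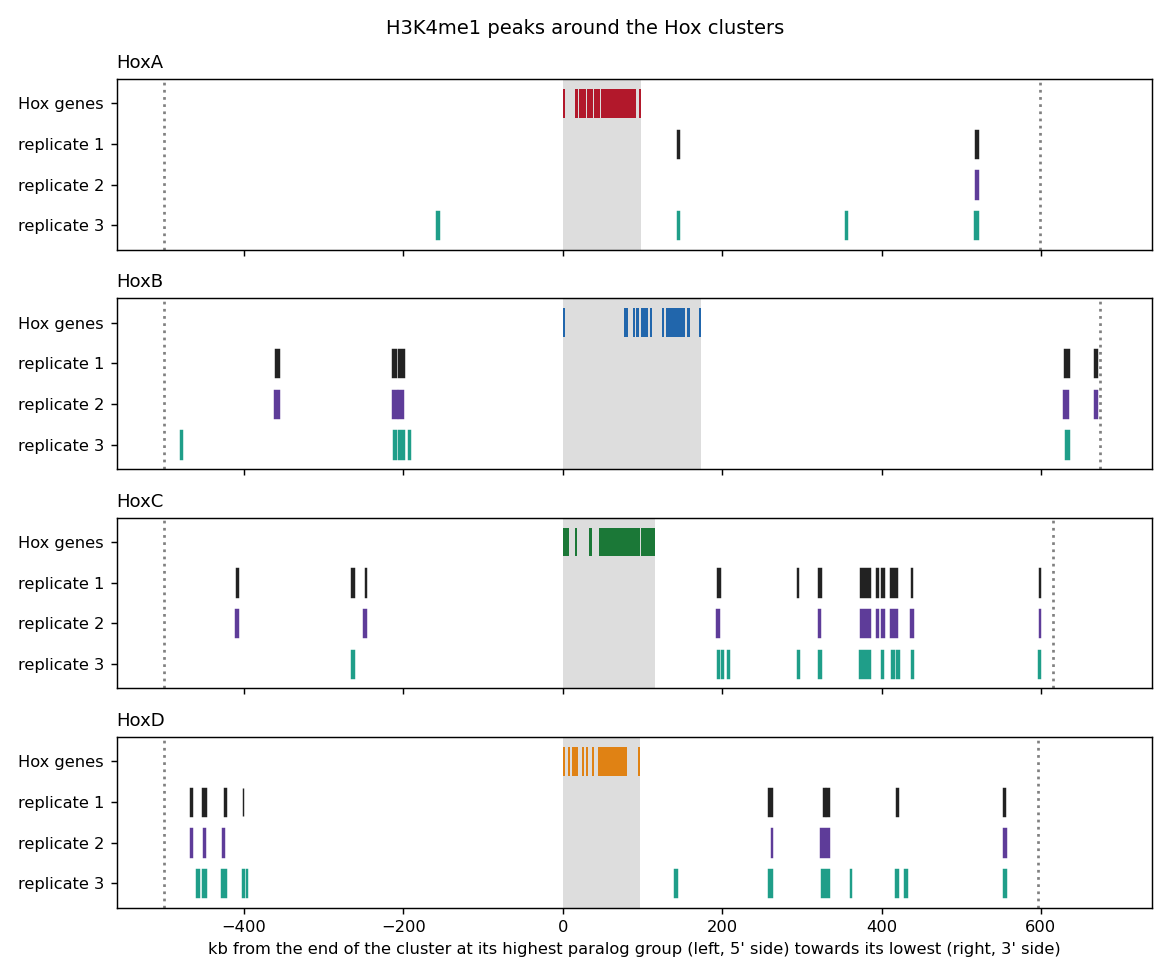
H3K4me1 peaks of the 3 replicates around each Hox cluster, drawn to scale by distance in kb, with the cluster shaded, Hox genes in the top track and dotted lines at 500 kb beyond either end. The shaded clusters held 0 peaks in every replicate, while the flanks held 28, 22 and 33 peaks in replicates 1, 2 and 3.

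The distance from a Hox gene start to the nearest peak differed between clusters, but their order was not the same in the 3 replicates. HoxA genes were the nearest to a peak in replicate 1 and the farthest in replicate 2. Hoxa2, which specifies the second-arch crest and is the lowest-group HoxA gene described here, lay 47.8 kb from a peak in replicate 1, 421.8 kb in replicate 2 and 47.6 kb in replicate 3. The short distances were those of replicates 1 and 3, which shared a region 45.2 kb beyond the 3′ end of the cluster that was absent from the list of replicate 2. That region was weak, at percentiles 0.667 and 14.7 of all peaks by total signal in replicates 1 and 3. Hoxd1, the lowest-group HoxD gene, lay 163.0 kb, 166.7 kb and 44.8 kb from a peak, and here the short distance was that of replicate 3. Hoxc4, which acts in the neck region, lay 95.1 kb, 94.8 kb and 95.3 kb away. The replicates differed by less than 1 kb at HoxC, where the nearest peak was the same region each time. Hoxb1, a hindbrain gene at the 3′ end of HoxB, lay 371.1 kb, 371.4 kb and 362.7 kb away, the farthest of the 38 genes in replicates 1 and 3.

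At the posterior ends Hoxa13 lay 143.9 kb, 517.8 kb and 143.7 kb from a peak, and Hoxb13 lay 199.6 kb, 199.9 kb and 191.2 kb away. Hoxc13, known for its role in hair and nail, lay 192.9 kb, 192.6 kb and 193.1 kb away, and Hoxd13, a digit gene, lay 257.7 kb, 261.4 kb and 139.5 kb away. The 517.8 kb of Hoxa13 in replicate 2 was the largest distance of any Hox gene in any replicate. In HoxA, HoxC and HoxD the nearest peak lay beyond the 3′ end in every replicate, so distance grew towards group 13. In HoxB the nearest peak lay beyond the 5′ end, so distance shrank towards group 13.

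Over the 38 genes the median distance was 185.1 kb, 269.2 kb and 130.7 kb in replicates 1, 2 and 3, against 86.1 kb, 104.5 kb and 121.3 kb over all protein-coding genes. The Hox median was the larger in each replicate, by a wide margin in replicates 1 and 2 and by little in replicate 3. The mean over replicates of the median distance per paralog group ran from 169.6 ± 60.3 kb (SD, n = 3) in group 10 to 262.8 ± 109.3 kb (SD, n = 3) in group 2. The spread between replicates was of the same size as the differences between groups, so the groups could not be ranked. The distances within a cluster are not independent, since all of its genes were measured to the same peak. The annotated records of Hoxa3, Hoxc5 and Hoxd3 are long (44.3 kb, 49.99 kb and 36.5 kb), and their start is the 5′ end of the record, which moves them out of line with their neighbours.

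**Figure D2:**
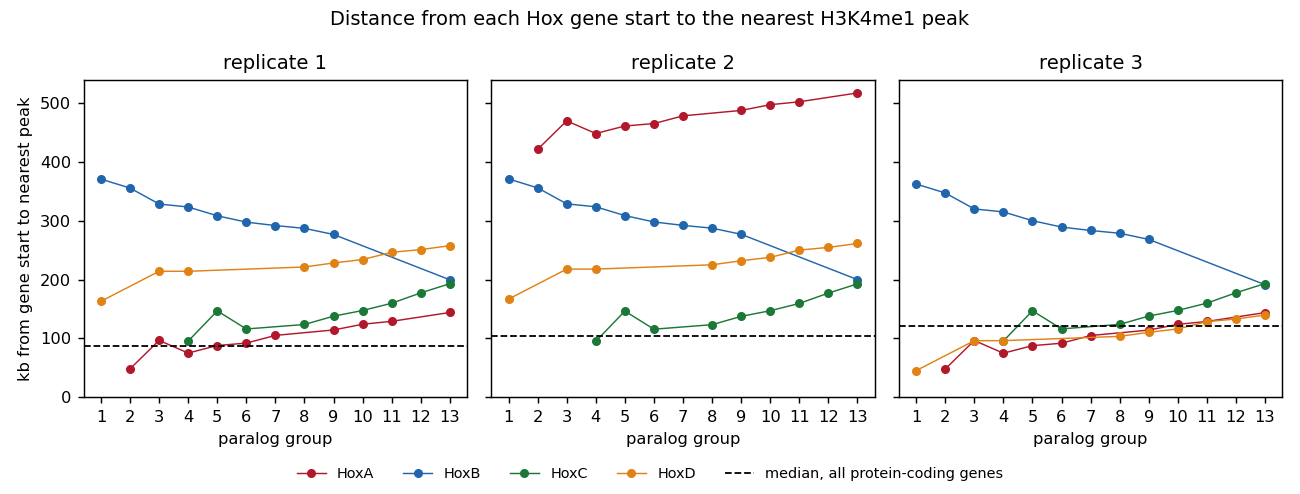
Distance in kb from each of the 38 Hox gene starts to the nearest H3K4me1 peak, by paralog group and coloured by cluster, with 1 panel per replicate and a dashed line at the median of all protein-coding genes. HoxB falls towards group 13 in each replicate and the other clusters rise, and HoxA sits above 400 kb only in replicate 2.

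Within 50 kb, 2 of 38 Hox genes had a peak in at least 1 replicate, Hoxa2 and Hoxd1, against 50.2% of protein-coding genes. Within 100 kb, 12 of 38 had a peak in at least 1 replicate, against 62.8% of protein-coding genes. They were Hoxa2 to Hoxa7 in replicates 1 and 3, through the weak region named above, Hoxd1, Hoxd3, Hoxd4 and Hoxd8 in replicate 3, and Hoxc4 and Hoxc5 in all 3 replicates. Both widths were added after the data were seen. No HoxB gene and no gene of groups 9 to 13 had a peak within 100 kb.

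Each cluster lay inside a longer stretch without a peak in any replicate. That stretch measured 299.5 kb around HoxA, 819.3 kb around HoxB, 439.1 kb around HoxC and 535.2 kb around HoxD. The median of all 19226 such stretches was 21.5 kb, and the Hox stretches stood at percentiles 91.4, 97.3, 94.5 and 95.5 of that distribution. Longer stretches cover more of the genome, so any locus is more likely to fall in a long stretch than this percentile shows. By replicate, the stretch around HoxA measured 676.7 kb, 1049.1 kb and 299.5 kb in replicates 1, 2 and 3, so its length rested on replicate 3. Around HoxB it measured 828.7 kb, 827.9 kb and 821.1 kb, and the 3 replicates were close. Around HoxC the values were 439.5 kb, 439.4 kb and 455.5 kb, and around HoxD they were 658.5 kb, 686.3 kb and 535.2 kb.

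The empty stretches also took in neighbours of the clusters. Evx1 beside HoxA and Evx2 beside HoxD, homeobox genes that belong to the extended clusters, lay inside them and so by definition had no peak in any replicate. The HoxD stretch further held Lnpk, a membrane protein gene of the 5′ regulatory landscape. The HoxB stretch held 9 other protein-coding genes, among them the gut hormone gene Gip, the ubiquitin-conjugating enzyme gene Ube2z and Cbx1, which encodes a heterochromatin protein. The HoxC stretch held 1, Calcoco1.

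**Figure D3:**
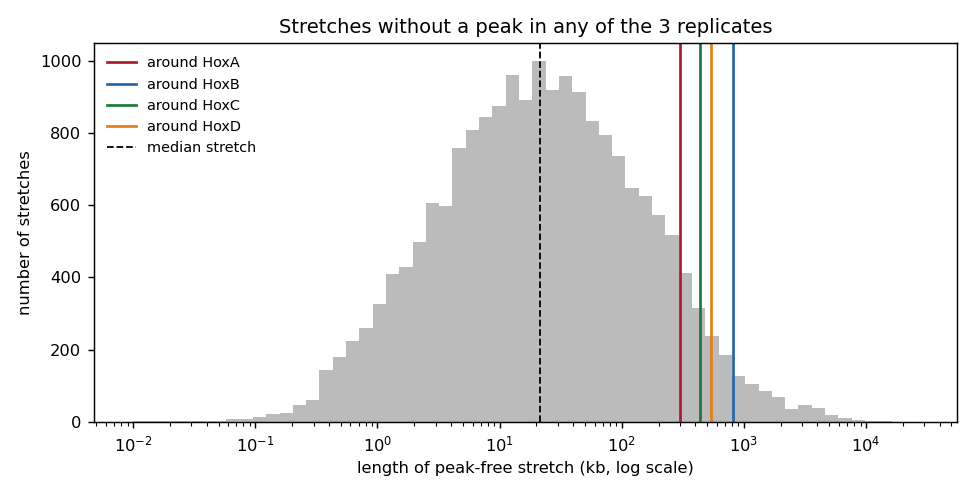
Lengths in kb (log scale) of the 19226 stretches without a peak in any replicate, as a histogram of stretch counts, with coloured lines at the stretches that hold each Hox cluster. The 4 lines lie between 299.5 kb and 819.3 kb, right of the dashed median of 21.5 kb.

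The flanking 500 kb on either side held peaks at every cluster. Counted over all 8 flanks there were 28, 22 and 33 peaks in replicates 1, 2 and 3, which joined into 38 separate regions wherever they overlapped. All 3 replicates contributed to 16 of the regions, 2 replicates to 11, and replicate 3 alone to 11. No region was found in replicate 1 alone or in replicate 2 alone. The same shares over all regions of the genome were not counted. The median GC content was 48.3% for regions in all 3 replicates and 43.1% for those in replicate 3 alone.

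On the 3′ side, coverage by peaks was 8.32% ± 0.342 (SD, n = 3) at HoxC, with 8.18%, 8.07% and 8.71% in replicates 1, 2 and 3. All 3 replicates were above the 90th percentile of 5134 windows of 500 kb, which stood at 7.03%. At HoxD the 3′ side held 4.16% ± 1.66 (SD, n = 3), at HoxB 1.60% ± 0.527 and at HoxA 1.16% ± 0.735. On the 5′ side, coverage was 3.44% ± 0.288 (SD, n = 3) at HoxB, 2.46% ± 1.09 at HoxD, 1.20% ± 0.547 at HoxC and 0.207% ± 0.359 at HoxA. The HoxA 5′ side had no peak in replicates 1 and 2 and 0.621% in replicate 3. The median window of 500 kb was covered to 0.599% and the mean window to 2.33%, so the flanks included sparse and dense territory.

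The 3′ side was covered more than the 5′ side at HoxA, HoxC and HoxD in each replicate, by 0.957 ± 0.405, 7.12 ± 0.888 and 1.70 ± 0.775 percentage points (SD, n = 3). At HoxB the 3′ side was the lower in each replicate, by -1.84 ± 0.360 points. Averaged over clusters the 3′ side exceeded the 5′ side by 1.99 ± 0.374 points (SD, n = 3), and without HoxC, an alternative added after the data were seen, by 0.273 points. With flanks of 1 Mb the mean difference turned to -2.996 points. The exact two-sided sign-flip permutation test gave p = 0.25 for each cluster (adjusted p = 0.25 over 4 tests) and for the mean, the smallest value that 3 replicates allow.

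Both flanks together were covered to 0.686% ± 0.542 (SD, n = 3) at HoxA, 2.52% ± 0.385 at HoxB, 4.76% ± 0.106 at HoxC and 3.31% ± 1.35 at HoxD. Without replicate 3 the HoxA value fell to 0.379% for both flanks, to 0.759% for the 3′ flank and to 0% for the 5′ flank. HoxA was the lowest in each replicate, and its difference from HoxC was -4.08 ± 0.642 points. HoxB and HoxD differed by -0.789 ± 1.71 points, which is within the spread between replicates. Over the 6 pairs of clusters the exact permutation test gave adjusted p from 0.375 to 0.75, and no p below 0.25 was possible for any pair in this design.

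**Figure D4:**
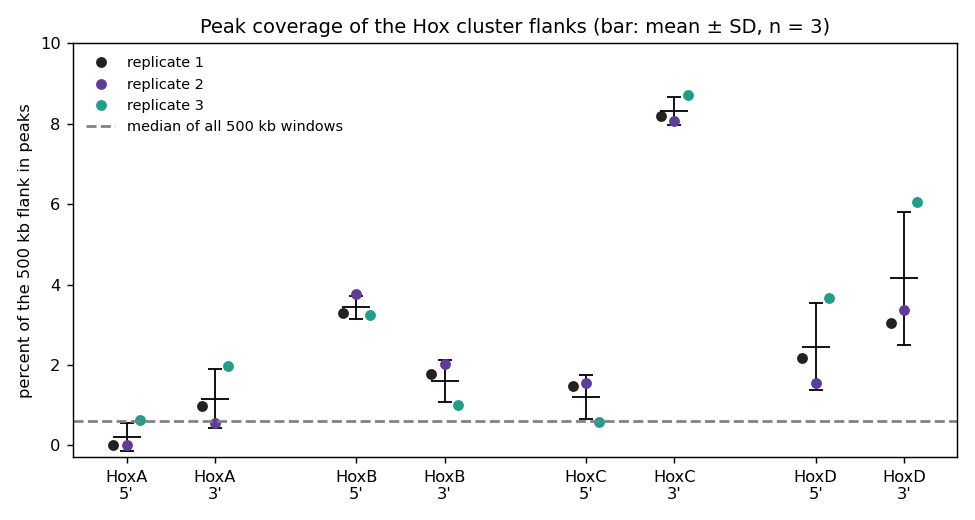
Percent of each 500 kb flank covered by H3K4me1 peaks, with 1 point per replicate, the mean with its SD (n = 3) and a dashed line at the median of all 500 kb windows (0.599%). The HoxC 3′ flank sits at 8.07% to 8.71%, and the HoxA 5′ flank at 0% in replicates 1 and 2.

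Peak strength was ranked within each list, as the percentage of peaks whose total signal was no higher. The strongest flanking region lay 256.6 kb beyond the 3′ end of HoxC at chr15:103293443-103307069 (GRCm38). It was 13.6 kb long and overlapped Copz1, a coatomer subunit gene, and the gene model Gm49482. The highest pileup of replicate 3, in which the region ranked highest, lay in an intron of Gm49482. The region stood at percentiles 99.5, 99.2 and 99.5 in replicates 1, 2 and 3. A second strong region lay over introns of Igf2bp1, an oncofetal RNA-binding protein gene, 199.6 kb beyond the 5′ end of HoxB at chr11:95987135-95994702. It stood at percentiles 95.2, 93.2 and 93.3, and a neighbouring Igf2bp1 region stood at 86.6, 83.4 and 75.3.

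In the gene-poor 3′ flank of HoxD, a region 226.5 kb from the cluster at chr2:74991638-75002869 overlapped no annotated gene and stood at percentiles 81.5, 92.2 and 94.1. Its nearest protein-coding start was that of Mtx2, a mitochondrial import gene, 165.8 kb away. In the 5′ flank of HoxD an intergenic region 447.6 kb from the cluster stood at 74.6, 71.3 and 68.9. The remaining regions among the 8 strongest overlapped Zfp385a in the HoxC 3′ flank (mean percentile 81.3), a zinc finger gene, and Nfe2l1 in the HoxB 3′ flank (80.5), a stress-response transcription factor gene, or lay 76.8 kb from the 3′ end of HoxC between genes (59.6). HoxA had no region among these 8, and its only region in all 3 replicates lay 418.0 kb beyond the 3′ end at percentiles 21.7, 19.1 and 76.1.

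In the HoxC 3′ flank 8 of 13 protein-coding genes had a peak within 5 kb in each replicate, and all 8 were the same genes. They were the heterochromatin protein gene Cbx5, the RNA-binding protein gene Hnrnpa1, the erythroid factor gene Nfe2, Copz1, the receptor gene Gpr84, Zfp385a, the fibronectin receptor subunit gene Itga5 and the phosphodiesterase gene Pde1b. Neighbouring windows share peaks, and Cbx5, Hnrnpa1 and Nfe2 shared their strongest peak, as did Copz1 and Gpr84. In the HoxB flanks Igf2bp1 and Nfe2l1 had a peak in all 3 replicates in shared regions. Zfp652 beside HoxB and Atp5g2 in the HoxC 5′ flank also had a peak in each replicate, but replicate 3 and replicate 2 had theirs in different regions. Sp1, which straddles the outer edge of the HoxC 5′ flank, had a peak in each replicate outside that flank, and no region inside it was shared by all 3 replicates. None of the genes considered in the HoxA and HoxD flanks had a peak in all 3 replicates. Over the flanks of all clusters, 13 of 50 protein-coding genes had a peak in all 3 replicates and 30 had none. Among all protein-coding genes, 15.5% had a peak in all 3 replicates.

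Genes that work with the Hox proteins or control them were examined as lists beside the clusters. The TALE homeodomain cofactors, which bind DNA together with Hox proteins but also act without them, had a peak at 5, 6 and 6 of 9 genes in replicates 1, 2 and 3. Pknox2, Meis2 and Meis1 stood at mean percentiles 99.3, 89.6 and 82.5, and Meis3 and Pbx4 had no peak in any replicate. Of 15 known regulators of Hox genes, 11, 10 and 8 had a peak. The retinoic acid receptor genes Rara, Rarg and Rarb stood at mean percentiles 99.9, 98.9 and 95.6. Cdx1, a direct Hox activator of the trunk, stood at 99.8, but its strongest peak overlapped the neighbouring mesenchymal receptor gene Pdgfrb and not Cdx1. The trunk regulators Cdx2 and Cdx4 and the retinoic acid synthesis gene Aldh1a2 had no peak in any replicate.

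The Polycomb list held subunits of the complexes that repress Hox clusters, and 9, 9 and 10 of 16 genes had a peak. Phc2, Cbx8 and Jarid2 stood at mean percentiles 98.5, 96.2 and 81.4, and Bmi1, Eed, Phc1 and Phc3 were among 5 genes with none. These are peaks at the genes for the subunits and not a measure of where Polycomb was bound.

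Homeobox genes outside the clusters gave both high and low counts. Of 22 homeobox genes outside the clusters that are known for roles in the face, 21, 22 and 16 had a peak in replicates 1, 2 and 3, and each had a peak in at least 1 replicate. Prrx2, Alx4 and Msx1, genes of the facial mesenchyme, stood at mean percentiles 99.7, 99.7 and 94.5. Of 8 homeobox genes that lie beside the Hox clusters or belong to the related Evx, Gsx, Pdx, Mnx and En families, 1, 1 and 0 had a peak. The 1 gene was En1, which acts in the midbrain and in limb ectoderm, at mean percentile 37.2 in replicates 1 and 2, and Evx1, Evx2, Gsx1 and Gsx2 were among the 7 with none.

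The share of the facial homeobox list exceeded that of the Hox genes by 89.4 ± 14.6 percentage points (SD, n = 3), and the TALE, regulator and Polycomb lists exceeded it by 63.0 ± 6.42, 64.4 ± 10.2 and 58.3 ± 3.61 points. The list of Hox relatives exceeded it by 8.33 ± 7.22 points. No test is given for these differences, since a Hox share of 0% in every replicate leaves them no other direction. The facial lists include genes known from this tissue and the peak of 1 gene can be counted for its neighbour, as at Dlx1 and Dlx2 or Dlx5 and Dlx6.

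**Figure D5:**
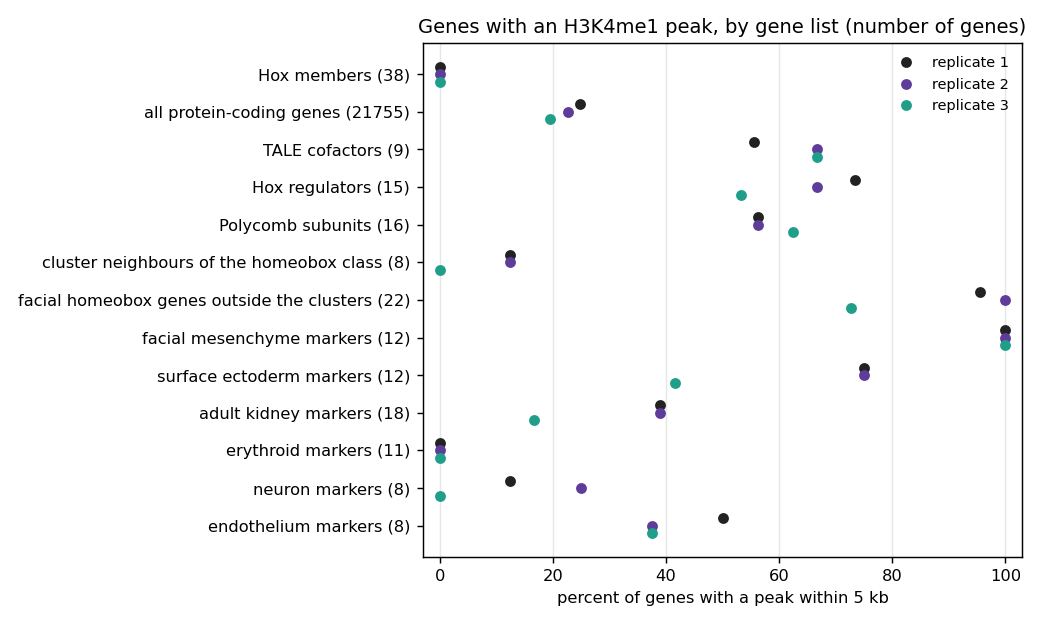
Percent of genes with an H3K4me1 peak within 5 kb for each gene list, with 1 point per replicate and the number of genes in parentheses. The Hox genes and the erythroid markers sit at 0% in all 3 replicates, all protein-coding genes at 19.6% to 24.9%, and facial mesenchyme markers at 100%.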

How the data were processed

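CUT&Tag with an H3K4me1 antibody was performed by the authors on 3 wild-type E12 whisker pad samples. The submitters' processing notes name Bowtie2 2.3, SAMtools 0.1.19, bedtools, SEACR 1.3 and mm10. The authors called peaks for each replicate separately with SEACR in stringent mode, without IgG, keeping the top 1% of blocks. The deposited peak lists give the total and the highest signal of each block. How duplicate reads were treated is not given in the sources used here. Total signal was used only as a rank within a list.

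Peaks were placed on GENCODE M21 genes and GRCm38, the assembly that mm10 names, in Python 3.11.15 with numpy 2.4.6, and figures were drawn with matplotlib 3.10.9. A gene was counted when a peak shared at least 1 base with the window from 5 kb before to 5 kb after its body. Clusters ran from the first to the last member gene, and flanks were 500 kb. Peaks of the 3 lists that overlapped were merged into regions. Differences in flank coverage were tested over replicates by an exact two-sided sign-flip permutation test, for which 3 replicates allow no p below 0.25. The overlap, merging and coverage steps were tested on simulated data. Alternatives covered the window, the flank length, the peak subset, the overlap rule and leaving out each replicate.

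The genes named were all 38 Hox genes, flank genes with a peak in all 3 replicates, the peaks nearest to each cluster, the 8 strongest flank regions in all 3 replicates, and for each list the 4 strongest genes with a peak in all replicates and up to 4 with none in alphabetical order. Some genes that the rule names are not reported here. Names outside this rule were chosen after their values were seen. The members and lists were chosen with earlier results of these data known. The window classes by gene density and GC content, the peak-free stretches, the differences between lists, the tests between flank pairs, and the sequence composition were added once the clusters had been seen to hold no peak. Promoter GC was read from the genome for all genes because the RefSeq promoter table matched 22 of 38 members. A search for 3 short motifs in the flank regions was made and is not reported.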

Additional observations from a re-analysis of the deposited data

How the results depend on the processing

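The count of Hox genes with a peak was 0 with 20 kb on either side, a wider window that could have raised it. It was also 0 with the gene body only, 2.5 kb around the gene start and an overlap of at least 500 bases. The same held for the stronger 50% or the strongest 10000 peaks of each list and for leaving out each replicate (0 to 0 genes). Apart from the 20 kb window, these alternatives could only return 0, since the main count was already 0 in every replicate. The 28 alternative values of cluster coverage were all 0 as well. With empty clusters, only adding 10 kb at both ends could have changed them, and the nearest peak lay 42.7 kb from a cluster end. With windows of 50 kb and 100 kb, chosen after the data were seen, the mean share of Hox genes with a peak was 2.63% and 19.3%, the number in at least 1 replicate 2 and 12, and the number in all replicates 0 and 2. Replicate 1 alone, the H3K4me1 sample without a kidney label, gave 0%. The mean difference in coverage between the 3′ and 5′ flanks reversed to -2.996 points with 1 Mb flanks, which take in other sequence, and kept its direction under its other alternatives. Regions in all 3 replicates fell from 16 to 7 with the stronger 50% of peaks and to 8 with the strongest 10000, since fewer peaks were used. Of 56 alternative values of single flanks, 17 moved by more than the spread between replicates, 10 of them with another flank length and 7 with fewer peaks. No paired analysis was possible because the peak lists used here all belong to the H3K4me1 group, so that no second group sharing its numbers was compared. Only the strongest blocks of each library were listed, so weaker H3K4me1 at the Hox clusters was not measured.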

Other observations

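Lists of other cell types gave the range against which the empty Hox clusters can be read. None of 11 erythroid markers, including Gata1, Klf1 and the globin genes Hba-a1 and Hbb-bs, had a peak in any replicate. Of 8 neuronal markers, 1, 2 and 0 had a peak in replicates 1, 2 and 3, and of 8 endothelial markers 4, 3 and 3 did. The endothelial genes Fli1, Erg and Pecam1 stood at mean percentiles 99.6, 96.6 and 62.0, and Cdh5, Sox17, Tek and Tie1 had no peak in any replicate.

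Of 12 surface ectoderm markers, 9, 9 and 5 had a peak. Grhl3, Tfap2c, Grhl2 and Trp63 stood at mean percentiles 94.3, 86.8, 65.5 and 36.7, and Epcam, Esrp1 and Krt14 had none. Krt5, Krt8, Krt18 and Cdh1 had a peak in replicates 1 and 2 and none in replicate 3. Replicate 3 was also the lowest of the 3 on the facial homeobox list and the adult kidney list, and it alone held 11 of the 38 regions in the Hox flanks. Those 11 were mostly weak, at a median percentile of 12.4 by total signal, against 55.2 for regions in all 3 replicates.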
